A study of Elaeis guineensis with 15 samples.

Results

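Chitinases of the base of the oil palm (Elaeis guineensis) fruit were described through 3 of the 51804 contigs assembled in this study. CL1Contig10109 is annotated as a basic chitinase, CL1Contig23312 as an EP3-like (class IV) chitinase and CL1Contig19377 as an acidic endochitinase. The 3 contigs were chosen by identifier, with earlier results of these data known. The tissues came from 1 tenera clone (clone C) grown in Thailand. The ripe abscission zone (AZ150, base of the fruit with its AZ at 150 days after pollination, DAP), the ripe pedicel (P150, the adjacent stalk at 150 DAP) and the immature abscission zone (AZ30, 30 DAP) were each sampled after 0, 3, 6 and 9 h, with ethylene at 10 μl per l from 3 h onwards and none at 0 h. Each of these 12 combinations was sequenced as 1 library by Roche pyrosequencing of tissue from many fruits (the labels give the pedicel as 150 DAP, the methods of the study as 30 DAP). A second experiment holds 1 Illumina library each of AZ tissue taken in the field at 30 and 120 DAP, with no shedding seen, and at 160 DAP, from bunches that shed fruit. No condition has a replicate library, and the dissected fruit base holds other cells beside the AZ. Untreated tissue of 3, 6 or 9 h is not among the libraries, and the effects of ethylene and of elapsed time cannot be told apart.

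Chitinases cut chitin, the polymer of N-acetylglucosamine that stiffens the walls of fungi and the shells of arthropods and that plant walls lack, and they are counted among the pathogenesis-related (PR) proteins of plants. They come from unrelated glycoside hydrolase families. The basic class I enzymes, here CL1Contig10109, belong to family 19 and carry a chitin-binding domain beside the catalytic one, and in bean and Arabidopsis they are textbook targets of ethylene. The class IV enzymes, here CL1Contig23312, are shorter members of family 19, and the EP3 enzyme of carrot was found in the medium of embryogenic cell cultures. CL1Contig19377 belongs to family 18 with hevamine, the chitinase and lysozyme of rubber tree latex. Chitinases and other PR proteins are known to accumulate in bean leaf AZs during ethylene-induced shedding.

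The 12 libraries held 26560 (AZ30 at 0 h) to 302391 (P150 at 6 h) reads in contigs, and a level here is the number of reads of a contig per 100000 of them. The AZ30 library at 0 h and the P150 library at 9 h (41588 reads) were the shallowest. For ratios, 0 reads in AZ30 at 0 h were set to a floor of 3 reads, a level of 11.3. The exact 95% upper limit of 0 reads there is a level of 13.9. Intervals are exact 95% intervals and cover counting error only. Levels are not compared between contigs, whose lengths were not available. EgPG4, a polygalacturonase of this AZ that the study followed, had 1.95, 39.0, 66.0 and 312 reads per 100000 in AZ150 at 0, 3, 6 and 9 h and no read in the 4 P150 libraries. Its AZ30 libraries had no read at 0 and 3 h, a single one at 6 h and a level of 46.6 at 9 h. The polygalacturonases EgPGAZ1 and EgPGAZ2 had at most 2 reads and 1 read in any P150 library. The study kept these polygalacturonases because AZ150 differed from P150 and AZ30 in these same libraries, so that this pattern is in part built in. It also reports EgPG4 in the ripening mesocarp and so not specific to the AZ. Fewer cells of a type and less RNA per cell cannot be told apart in these tissue pieces.

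The basic chitinase CL1Contig10109 was low in every tissue at 0 h and climbed to its highest level at 9 h in each. In AZ150 it had 22.4, 273, 367 and 1235 reads per 100000 at 0, 3, 6 and 9 h. In P150 the levels were 2.26, 129, 200 and 488 at the same times. In AZ30 no read was found at 0 h, and the levels were 147, 46.0 and 1528 at 3, 6 and 9 h. All 9 treated libraries lay above all 3 untreated ones. In AZ150 the level was 12.2-fold (7.83 to 19.8) that of 0 h at 3 h, 16.4-fold (10.7 to 26.2) at 6 h and 55.1-fold (36.6 to 87.2) at 9 h. In P150 the ratios to 0 h were 57.0 (24.1 to 177.0), 88.5 (37.7 to 273) and 216 (91.0 to 672) at 3, 6 and 9 h, on 5 reads at 0 h. In AZ30, set against a floor of 3 reads at 0 h, the ratios were 13.0, 4.07 and 135 at 3, 6 and 9 h. Their exact 95% lower limits against the 0 reads found were 10.4, 3.14 and 110.

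AZ150 and P150 gained at each step, whereas the AZ30 level went down between 3 and 6 h, with a ratio of 6 h over 3 h of 0.313 (0.212 to 0.452), and then stood 33.2-fold (24.0 to 47.5) higher at 9 h than at 6 h. The step between 6 and 9 h was 3.37-fold (2.98 to 3.81) in AZ150 and 2.44-fold (2.07 to 2.86) in P150. The order of the 12 libraries by this contig ran AZ30, P150 and AZ150 at 0 h, AZ30 at 6 h, P150 and AZ30 at 3 h, P150 at 6 h, AZ150 at 3 and 6 h, P150 at 9 h, AZ150 at 9 h and AZ30 at 9 h. Of the neighbours in this order, AZ30 and P150 at 3 h did not differ beyond counting error (ratio of AZ30 to P150 1.14, 0.928 to 1.39), and the lowest pair rests on 0 and 5 reads.

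**Figure D1:**
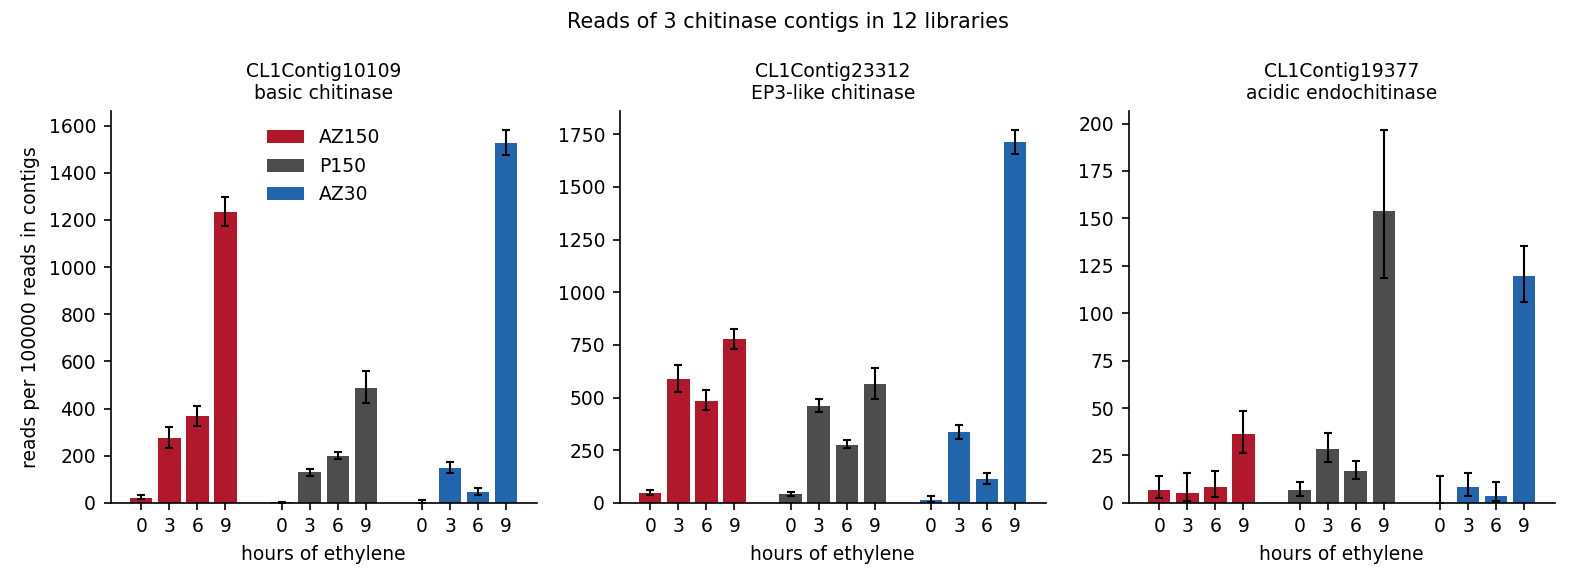
Levels of the 3 chitinase contigs, one panel each with its own axis, in reads per 100000 reads in contigs, at 0, 3, 6 and 9 h of ethylene in AZ150, P150 and AZ30. Bars are single libraries and whiskers exact 95% counting intervals; CL1Contig10109 and CL1Contig23312 are highest in AZ30 at 9 h (1528 and 1713), and CL1Contig19377 in P150 at 9 h (154).

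The EP3-like chitinase CL1Contig23312 was already present at 0 h in the ripe tissues and reached much of its level by 3 h. In AZ150 it had 47.8, 587, 485 and 777 reads per 100000 at 0, 3, 6 and 9 h. In P150 it had 43.0, 461, 277 and 565. In AZ30 it had 11.3 (3 reads), 335, 114 and 1713. The untreated libraries were again the lowest 3 of the 12. Against 0 h the AZ150 level was 12.3-fold (9.08 to 16.9), 10.2-fold (7.54 to 13.9) and 16.3-fold (12.2 to 22.1) at 3, 6 and 9 h. The P150 ratios were 10.7 (8.68 to 13.4), 6.44 (5.21 to 8.05) and 13.2 (10.3 to 16.9). In AZ30 the ratios were 29.7 (10.1 to 144), 10.1 (3.33 to 49.7) and 152 (51.9 to 736), on 3 reads at 0 h.

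This contig had the same shape in all 3 tissues, with a first high level at 3 h, a lower one at 6 h and the highest at 9 h. The ratio of 6 h over 3 h was 0.826 (0.713 to 0.958) in AZ150, 0.600 (0.546 to 0.660) in P150 and 0.339 (0.266 to 0.429) in AZ30. The ratio of 9 h over 6 h was 1.60 (1.43 to 1.80) in AZ150, 2.04 (1.76 to 2.36) in P150 and 15.1 (12.2 to 18.8) in AZ30. A level lower at 6 h than at 3 h in all 3 tissues was found for 19.2% of the 6353 contigs with at least 50 reads, so that part of the shape is common. A highest level at 9 h in all 3 tissues was found for 3.89% of these contigs and for all 3 chitinases. In the order of its levels, the AZ150 and P150 libraries at 0 h did not differ beyond counting error, and neither did the neighbours among P150 at 3 h, AZ150 at 6 h, P150 at 9 h and AZ150 at 3 h. The AZ150 library at 9 h and, above it, the AZ30 library at 9 h stood apart from those below them.

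Both family 19 contigs ranked high by read number, which is not scaled by contig length, in all 3 tissues at 9 h. CL1Contig23312 ranked first of all contigs in AZ30 at 9 h and CL1Contig10109 next. In AZ150 at 9 h, CL1Contig10109 ranked 2 and CL1Contig23312 ranked 3, against ranks 579 and 174 at 0 h. In P150 at 9 h they ranked 7 and 6, against 8045 and 198 at 0 h. In AZ30 at 6 h their ranks were only 191 and 54. Together the 3 chitinases took 0.0770%, 0.865%, 0.860% and 2.05% (1.97% to 2.13%) of the reads of AZ150 at 0, 3, 6 and 9 h. In P150 their share was 0.0520%, 0.618%, 0.494% and 1.21% (1.10% to 1.32%), and in AZ30 it was 0.0113%, 0.490%, 0.163% and 3.36% (3.28% to 3.44%).

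CL1Contig19377, 1 of 2 contigs of the acidic endochitinase, had 0 to 9 reads in the AZ150 and AZ30 libraries before 9 h, and unlike the others it was highest in the pedicel. In AZ150 it had 6.82, 5.32, 8.26 and 36.2 reads per 100000 at 0, 3, 6 and 9 h. In P150 it had 6.78, 28.5, 16.9 and 154, the last on 64 reads, and in AZ30 it had 0 reads at 0 h and then 8.30, 3.83 and 120 reads per 100000. The untreated libraries were not separate from the treated ones for this contig: the AZ150 level at 3 h and the AZ30 level at 6 h, on 3 reads each, lay below those of AZ150 and P150 at 0 h. The ratio to 0 h was 5.30 (2.38 to 13.9) in AZ150 at 9 h, and 0.780 (0.130 to 3.41) and 1.21 (0.362 to 4.04) at 3 and 6 h. In P150 it was 4.20 (2.34 to 7.98), 2.49 (1.38 to 4.76) and 22.7 (12.8 to 42.9) at 3, 6 and 9 h. In AZ30 at 9 h it was 10.6 times the floor of 3 reads at 0 h (exact 95% lower limit against 0 reads 8.57), and at 3 and 6 h it stayed under that floor. The P150 and AZ30 libraries at 9 h did not differ beyond counting error (ratio of P150 to AZ30 1.28, 0.961 to 1.69).

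The study asked which genes respond to ethylene with the exact Audic and Claverie test at p under 0.01, followed by a Bonferroni correction, between each AZ150 time and 0 h. The same test was made here without a correction and also within P150 and AZ30, and it compares 2 libraries and not conditions. Of the 27 comparisons of the 3 chitinases, 23 were called higher and none lower. The basic and EP3-like chitinases were higher in all 9 comparisons each, and the acidic endochitinase in 5, namely AZ150 at 9 h, P150 at 3, 6 and 9 h and AZ30 at 9 h. Its 4 other comparisons had p of 0.825 and 0.707 in AZ150 at 3 and 6 h and of 0.223 and 0.622 in AZ30 at 3 and 6 h in the exact test. Over all contigs with a read in either library, 1.93%, 1.93% and 1.98% were called higher in AZ150 at 3, 6 and 9 h, 2.46%, 2.85% and 3.07% in P150, and 0.523%, 0.324% and 0.838% in AZ30. Among the 6353 contigs with at least 50 reads the AZ150 shares were 6.61%, 6.83% and 7.93% at 3, 6 and 9 h, those of P150 were 11.9%, 13.2% and 7.84%, and those of AZ30 were 2.03%, 1.04% and 3.71%. The 3 contigs stand in the study's lists of AZ150 genes, so that a call in AZ150 is in part built in. The P150 and AZ30 calls, known when the contigs were chosen here, are not independent support. With a Bonferroni correction, 20 of 27 were called. Without the comparisons that use the shallow AZ30 library at 0 h or P150 library at 9 h, 13 of 15 were called higher.

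Over the 12 libraries together, edgeR with additive terms for tissue and time, in which the 3 tissues stand in for repeats of a time, called 7 of the 9 time terms of the chitinases higher (adjusted p under 0.05). The basic chitinase was higher than at 0 h by 4.79 ± 0.67 on the log2 scale at 3 h, 4.98 ± 0.68 at 6 h and 7.60 ± 0.75 at 9 h (SE, n = 12 libraries, edgeR adjusted p = 1.24e-08, 4.19e-10 and 2.36e-20). The EP3-like chitinase was higher by 3.84 ± 0.61, 3.17 ± 0.59 and 5.29 ± 0.67 at these times (edgeR adjusted p = 6.51e-07, 3.06e-05 and 1.85e-12). For the acidic endochitinase only the 9 h term passed, at 4.39 ± 0.66 (edgeR adjusted p = 7.65e-09), and the terms of 1.36 ± 0.67 at 3 h and 0.98 ± 0.67 at 6 h did not (edgeR adjusted p = 0.404 and 0.670). Of all 10762 contigs tested, 1.54%, 2.05% and 3.99% were called higher at 3, 6 and 9 h, and their median time terms were 0.13, 0.14 and 0.17. Without AZ150, from whose libraries the study drew its lists, 7 of the 9 terms were called as well. The P150 and AZ30 results were known when the contigs were chosen here, so that this fit is not independent support.

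Whether ripe AZ, ripe pedicel and immature AZ differed in chitinase level was asked in 2 ways. At single times, the basic chitinase was higher in AZ150 than in P150 throughout, with ratios of 9.91 (3.69 to 33.4), 2.12 (1.72 to 2.60), 1.83 (1.59 to 2.11) and 2.53 (2.18 to 2.94) at 0, 3, 6 and 9 h. Against AZ30 its AZ150 level was 1.86-fold (1.48 to 2.34) at 3 h and 7.98-fold (5.64 to 11.6) at 6 h, but 0.808-fold (0.761 to 0.859) at 9 h. At 0 h, with no AZ30 read, its AZ150 level was 1.98 times the floor of 3 reads in AZ30 (exact 95% lower limit against 0 reads 1.49). The EP3-like chitinase in AZ150 stood at 1.11 (0.771 to 1.59), 1.27 (1.12 to 1.44), 1.75 (1.55 to 1.97) and 1.38 (1.19 to 1.59) times its P150 level at 0, 3, 6 and 9 h. Its ratio of AZ150 to AZ30 was 4.23 (1.36 to 21.2), 1.75 (1.50 to 2.04) and 4.27 (3.38 to 5.43) at 0, 3 and 6 h and 0.454 (0.422 to 0.487) at 9 h. CL1Contig19377 ran the other way between the ripe tissues, with AZ150 at 1.01 (0.347 to 2.62), 0.187 (0.0374 to 0.574), 0.490 (0.187 to 1.08) and 0.235 (0.157 to 0.349) times P150. At 9 h its AZ150 level was 0.302 (0.216 to 0.414) times that of AZ30. With CL1Contig7836, the other contig of the acidic endochitinase, summed to it, the ratios of AZ150 to P150 were 0.941 (0.596 to 1.45), 0.961 (0.657 to 1.38), 0.693 (0.483 to 0.972) and 1.08 (0.841 to 1.41), so that the direction at 3 and 9 h belongs to the single contig.

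**Figure D2:**
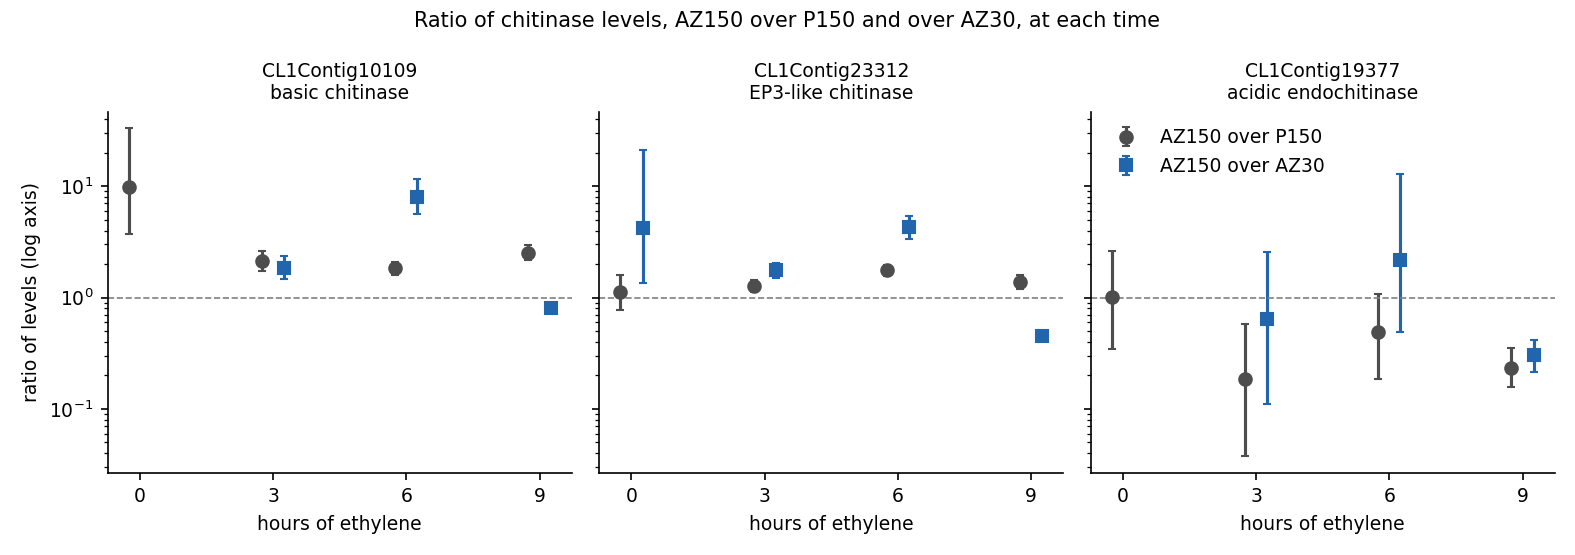
Ratio of the level in AZ150 to that in P150 (circles) and in AZ30 (squares) at 0, 3, 6 and 9 h for the 3 contigs, on a log axis, with exact 95% counting intervals; the dashed line is a ratio of 1. The basic chitinase lies above 1 against P150 at each time (1.83 to 9.91), the acidic contig CL1Contig19377, not summed with CL1Contig7836, lies below 1 against P150 at 3 and 9 h, and all 3 contigs lie below 1 against AZ30 at 9 h; AZ30 at 0 h had no read of the basic and acidic contigs, so no ratio is drawn.

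In the edgeR fit over all 12 libraries, in which the 4 times stand in for repeats of a tissue, none of the 9 tissue differences of the 3 chitinases passed adjusted p under 0.05, and 4 of them had an unadjusted p under 0.05. DESeq2's Wald test also called none. The difference of AZ150 over P150 was 1.48 ± 0.49 for the basic chitinase, 0.44 ± 0.47 for the EP3-like and -1.38 ± 0.53 for CL1Contig19377 on the log2 scale (SE, edgeR adjusted p = 0.204, 0.996 and 0.395). With its contigs summed, the acidic endochitinase stood at -0.17 ± 0.45 (edgeR adjusted p = 0.997). The edgeR adjusted p for CL1Contig19377 ran from 0.0549 to 1 over 13 alternatives, the sum being among them. With AZ30 left out, an alternative chosen after seeing the data, the basic chitinase was called higher in AZ150 than in P150 by 1.46 ± 0.35 (edgeR adjusted p = 0.00344, the lowest of 13 alternatives, whose highest was 0.946). That of AZ150 over AZ30 was 1.26 ± 0.54, 0.69 ± 0.51 and -0.32 ± 0.58 for the basic, EP3-like and acidic contigs (edgeR adjusted p = 0.201, 0.640 and 0.891), and that of AZ30 over P150 was 0.22 ± 0.54, -0.25 ± 0.52 and -1.05 ± 0.51 (edgeR adjusted p = 0.923, 0.901 and 0.286). Of all contigs tested, 0.678% were called for AZ150 over P150, 4.36% for AZ150 over AZ30 and 4.73% for AZ30 over P150. The comparison with AZ30 depended on the times in the fit. Without the 6 h libraries the AZ150 over AZ30 terms of the basic and EP3-like chitinases were 0.70 ± 0.62 and 0.08 ± 0.58. Without the AZ30 library at 0 h they were 0.96 ± 0.52 and 0.27 ± 0.51, and neither fit called them. Without the libraries of 9 h the basic and EP3-like chitinases were higher in AZ150 than in AZ30 by 2.20 ± 0.53 and 1.55 ± 0.45 (edgeR adjusted p = 0.00248 and 0.0224, the lowest of 13 alternatives, whose highest were 0.813 and 1).

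The response to ethylene was also compared between tissues with 6 groups, treated and untreated for each tissue, which takes the spread of the 1 untreated library to be that of the 3 treated ones. No contig at all passed in any of the 5 contrasts (0% of 10762), and 212 to 727 had an unadjusted p under 0.05 in edgeR, so that this design calls very little. DESeq2 called 13, 17 and 1 contigs for the effect in AZ150, P150 and AZ30, and 0 for each difference between tissues. The response of AZ150 differed from that of P150 by -1.78 ± 2.07 for the basic, 0.53 ± 1.70 for the EP3-like and -1.53 ± 1.99 for the acidic contig on the log2 scale (SE, edgeR adjusted p = 1.00 each). A larger response of the chitinases in one tissue than in another was therefore not detectable with these libraries, and the SEs are as wide as the differences. Against AZ30 no fitted difference is given, since the AZ30 library at 0 h had 0 to 3 reads of each contig.

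The balance between the family 19 contigs moved with time. CL1Contig10109 held 31.9% (21.4% to 44.0%) of the reads of both contigs in AZ150 at 0 h, 31.8% (27.6% to 36.1%) at 3 h, 43.1% (39.4% to 46.8%) at 6 h and 61.4% (59.5% to 63.3%) at 9 h. In P150 it held 5.00% (1.64% to 11.3%), 21.8% (19.5% to 24.3%), 42.0% (39.4% to 44.6%) and 46.3% (41.6% to 51.1%). In AZ30 its share was 30.5% (26.5% to 34.6%) at 3 h, 28.8% (21.1% to 37.6%) at 6 h and 47.1% (46.0% to 48.3%) at 9 h. The share thus went up between 3 and 9 h in all 3 tissues by more than the counting intervals, and at 9 h it was highest in AZ150.

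**Figure D3:**
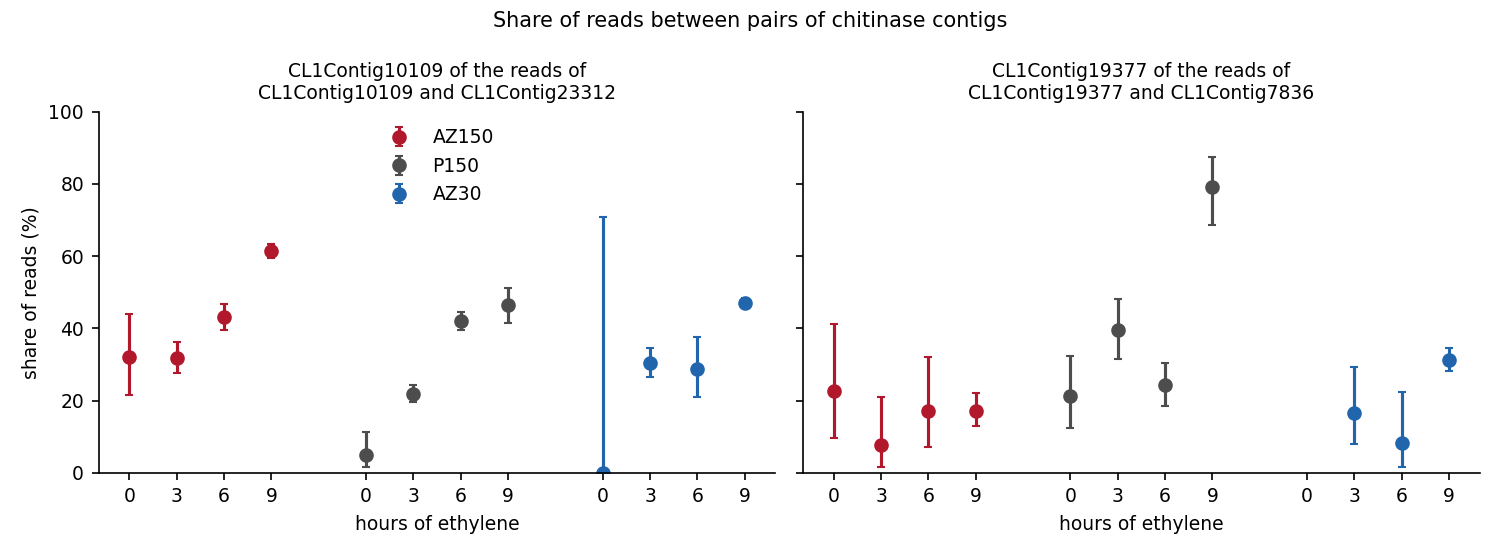
Share of reads (%) held by CL1Contig10109 of its own and those of CL1Contig23312 (left) and by CL1Contig19377 of its own and those of CL1Contig7836 (right) in each library, by tissue and hours of ethylene. Points are single libraries with exact 95% binomial intervals; on the left the share at 9 h is 61.4% in AZ150, 46.3% in P150 and 47.1% in AZ30, on the right P150 at 9 h stands at 79.0%, and AZ30 at 0 h has no point because it had no read of either contig.

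The acidic endochitinase has another contig, CL1Contig7836, which the study gives the same RefSeq transcript (XM_010926494) and which therefore may share reads with CL1Contig19377. CL1Contig7836 had 23.4, 63.8, 40.1 and 175 reads per 100000 in AZ150 at 0, 3, 6 and 9 h. In P150 it had 25.3, 43.5, 52.9 and 40.9, and in AZ30 no read at 0 h and then 41.5, 42.1 and 264. These contigs did not split their reads evenly. CL1Contig19377 held 17.2% (12.8% to 22.2%) of the reads of both in AZ150 at 9 h and 31.2% (28.1% to 34.5%) in AZ30 at 9 h, but 79.0% (68.5% to 87.3%) in P150 at 9 h. Summed, the acidic endochitinase had 30.2, 69.1, 48.4 and 211 reads per 100000 in AZ150 at 0, 3, 6 and 9 h. The sums in P150 were 32.1, 71.9, 69.8 and 195, and AZ30 reached 384 at 9 h. The sum thus also went up in P150 at 9 h, but the higher level of CL1Contig19377 in P150 than in AZ150 is not seen in it. With the contigs of a transcript summed, 26 of 27 comparisons with 0 h were called higher, and the call for the acidic endochitinase was then also made in AZ150 at 3 h and in AZ30 at 3 and 6 h.

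The study's annotation of 1050 contigs, which come from its lists of AZ150 genes, is not a complete census. It names 7 further contigs of chitinases, chitin-binding PR-4 proteins or Barwin-like proteins, grouped here with the 3 chitinases as the family. They are the EP3-like CL1Contig11339 and CL1Contig10513, the acidic CL1Contig7836, the PR-4 contigs CL1Contig4209, CL1Contig3195 and CL1Contig3879 (all 3 of 1 transcript, LOC105042178), and CL1Contig5050, a ripening-related protein with a Barwin-like fold. PR-4 proteins bind chitin, and some also have chitinase or ribonuclease activity. Of these 7, the exact Audic and Claverie test at p under 0.01 called 4, 7 and 4 higher in P150 at 3, 6 and 9 h, 3, 2 and 4 higher in AZ30, and none lower. In AZ150, where the choice builds the calls in, 4, 3 and 7 were higher. Among all contigs with at least 50 reads, 11.9%, 13.2% and 7.84% were called higher in P150 at 3, 6 and 9 h. The shares were 2.03%, 1.04% and 3.71% in AZ30 and 6.61%, 6.83% and 7.93% in AZ150. The edgeR time terms called 3, 3 and 7 of the 7 further contigs higher at 3, 6 and 9 h, against 1.54%, 2.05% and 3.99% of all contigs tested. Their median term at 9 h was 3.37 on the log2 scale, against 0.17 over all contigs tested. The fit holds the AZ150 libraries from which these contigs were listed, so that these time terms are in part built in as well.

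Of the 10 contigs of the family, 7 had their highest level in AZ30 at 9 h. The share of all contigs with their highest level in that library was not counted, and some of the 10 share a transcript. For CL1Contig3879 that level, 18.7 (13.3 to 25.4), overlapped in its counting interval with the 17.2 (12.8 to 22.6) of P150 at 6 h. CL1Contig4209, the most read PR-4 contig, had 12.7, 63.8, 123 and 264 reads per 100000 in AZ150 at 0, 3, 6 and 9 h. Its P150 levels were 9.04, 115, 114 and 327 and its AZ30 levels 3.77, 43.4, 44.7 and 578. CL1Contig11339 stood at 8.77, 37.2, 27.1 and 68.4 in AZ150. Its P150 levels were 1.81, 29.0, 22.2 and 40.9, its AZ30 levels 0, 22.1, 20.4 and 144, and its 3 and 6 h levels did not differ beyond counting error in any tissue. The exceptions were CL1Contig19377, highest in P150 at 9 h, CL1Contig3195, highest in AZ150 at 9 h on 29 reads, and CL1Contig5050. CL1Contig5050, which is not named a chitinase or PR-4, had 9.50, 11.0, 67.5 and 64.9 reads per 100000 in P150 but at most 8.94 in AZ30. It was the 1 contig of the 7 further ones that edgeR called higher in AZ150 than in AZ30.

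**Figure D4:**
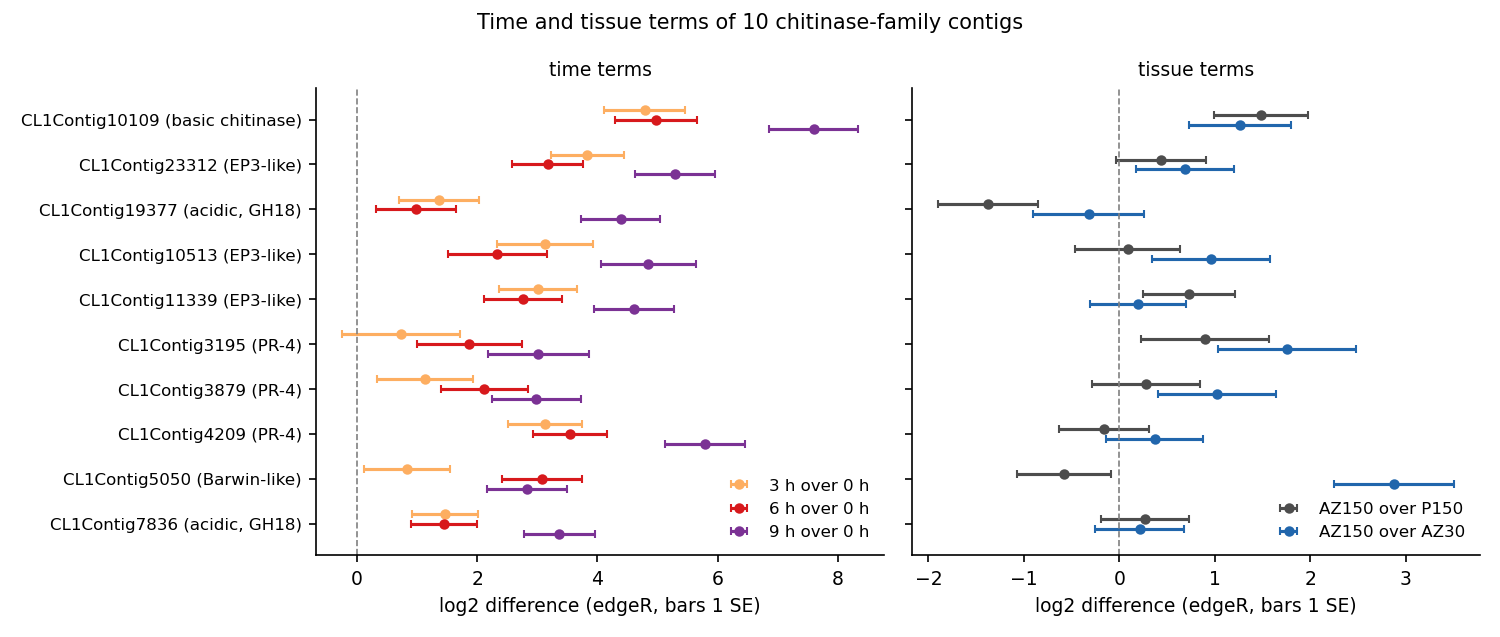
Log2 differences from the additive edgeR fit for the 10 chitinase-family contigs: time terms over 0 h (left) and AZ150 over P150 and over AZ30 (right). Points are estimates over 12 libraries and bars 1 SE; all 10 contigs have a 9 h term above 0 (2.82 to 7.60), whereas the AZ150 over P150 terms scatter around 0 (-1.38 to 1.48).

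Other pathogenesis-related proteins in the same annotation were counted beside them. PR-1 proteins, small secreted proteins used as markers of defence, gave 2 contigs, of which CL1Contig10913 had 103, 156 and 402 reads per 100000 at 9 h in AZ150, P150 and AZ30 and at most 7.49 at any earlier time. CL1Contig2084 had 3.93 in AZ150 at 9 h, against 15.6 at 0 h, and was the 1 PR-1 contig called lower there. Of 8 beta-1,3-glucanases (PR-2), which act on callose and fungal glucan, 8, 6 and 3 were called higher at 9 h in AZ150, P150 and AZ30 in the exact Audic and Claverie test. In AZ30 at 9 h 1 PR-2 contig was called lower, CL1Contig14094, with 52.2 reads per 100000 against 147 at 0 h. The most read PR-2 contig, CL1Contig7306, had 1674 and 1700 reads per 100000 in AZ150 and P150 at 9 h but 361 in AZ30. Of 11 thaumatin-like and osmotin contigs (PR-5), 9, 10 and 6 were called higher at 9 h in AZ150, P150 and AZ30. Over all contigs with a read in either library, the shares called higher at 9 h in these tissues were 1.98%, 3.07% and 0.838%. Among contigs with at least 50 reads they were 7.93%, 7.84% and 3.71%. In the edgeR fit, 6 of 8 PR-2 and 5 of 11 PR-5 contigs were higher in AZ150 than in AZ30, with medians of 2.92 and 1.69 on the log2 scale, against 0.09 over all contigs. The annotation covers the study's AZ150 genes, some of them kept because AZ150 differed from AZ30 and P150 in these same libraries. Calls in AZ150 and an excess over AZ30 are therefore in part built into these lists, and their contrast with the chitinases was not tested. The 3 chitinases had 1.26, 0.69 and -0.32 in this comparison, none called. No contig annotated as a LysM chitin receptor was found among the 1050.

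Contigs were also ranked by the likeness of their pattern, as Pearson's r of log2(reads per 100000 + 1) over the 12 libraries among the 6353 contigs with at least 50 reads. These values share the libraries and their depths and are a description. The contig most like the basic chitinase was the EP3-like CL1Contig11339 (r = 0.977), followed by CL1Contig23312 (r = 0.969), CL1Contig25579 (matched to transcription factor MYB21, r = 0.963), the PR-4 contig CL1Contig4209 (r = 0.951) and CL1Contig1518 (matched to an uncharacterised protein, r = 0.946). The contig most like CL1Contig23312 was the basic chitinase, and next came CL1Contig11339 (r = 0.960), CL1Contig6374 (matched to a signal peptide peptidase-like protein, r = 0.960) and the unannotated CL1Contig21726 (r = 0.957) and CL1Contig10176 (r = 0.953). The 5 contigs most like CL1Contig19377, all without annotation here, had r of 0.881 to 0.911, led by CL1Contig4025. Among the family, CL1Contig4209 was its nearest (r = 0.873, place 10), and CL1Contig7836 of the same transcript stood at r = 0.743, place 161.

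In the field, where the deposited values are RPKM (reads scaled by transcript length and by the reads mapped in the library) and therefore comparable between transcripts, 2 of the 3 chitinases have a value. The basic chitinase (LOC105059691) stood at 22.4, 1495 and 5198 RPKM at 30, 120 and 160 DAP. The acidic endochitinase (XM_010926494.1, both contigs) stood at 2.24, 140 and 9068 RPKM. The RefSeq transcript of CL1Contig23312 was not analysed here in the field libraries. Among the 44360 transcripts the acidic endochitinase had rank 24425, 725 and 5 at 30, 120 and 160 DAP, and the basic chitinase rank 5285, 25 and 12. The basic chitinase exceeded the acidic one at 30 and 120 DAP, and the order was inverted at 160 DAP.

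Each age is 1 library and no test was made. The ratio of 160 over 30 DAP was 232 for the basic and 4049 for the acidic chitinase, and that of 160 over 120 DAP was 3.48 and 64.6. Between 30 and 120 DAP, before shedding was seen, the ratios were close to each other at 66.8 and 62.7. A 2-fold or larger increase was found for 13.9% of all expressed genes at 160 over 30 DAP, 8.91% at 160 over 120 DAP and 15.4% at 120 over 30 DAP. Rescaling the libraries by their median ratio, with 0.1 then added to each RPKM, gave 372 and 6178 for 160 over 30 DAP for the basic and acidic chitinase. The 232 and 4049 above are without that addition, so that these pairs differ in more than the scaling. The PR-4 transcript (LOC105042178) had 9.50, 655 and 4236 RPKM at 30, 120 and 160 DAP, at rank 17 at 160 DAP. The transcript of CL1Contig5050 (LOC105053618) had 12.9, 120 and 90.3 RPKM. Beside the ethylene experiment, AZ150 at 0 h had 30.2 reads per 100000 of the acidic endochitinase, both contigs summed, and 22.4 of the basic chitinase, in units and platforms that are not comparable with RPKM.

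**Figure D5:**
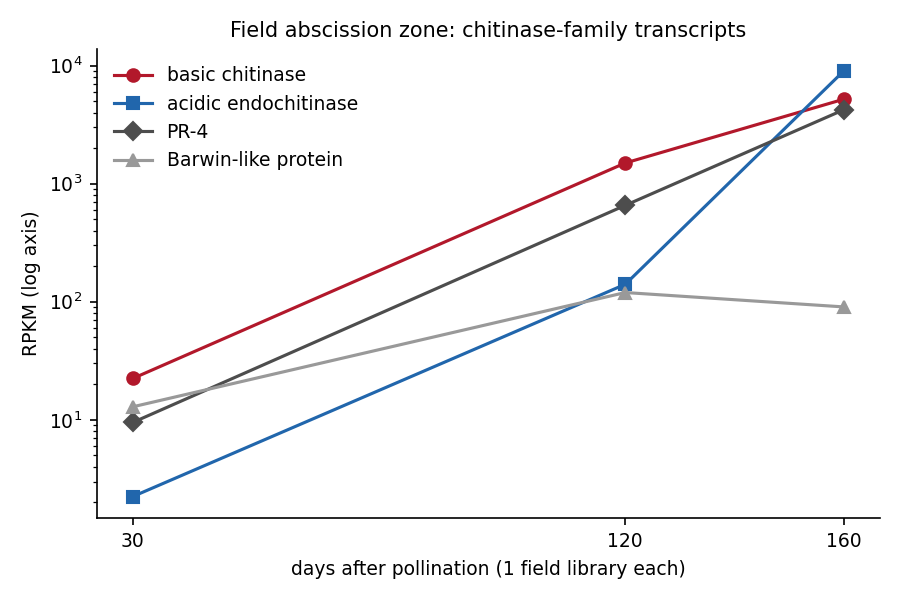
RPKM, on a log axis, of 4 chitinase-family transcripts in field AZ at 30, 120 and 160 days after pollination, 1 library each, with lines joining the values of a transcript. The basic chitinase (22.4, 1495 and 5198) and PR-4 (9.50, 655 and 4236) increase less after 120 days than the acidic endochitinase (2.24, 140 and 9068), and the Barwin-like protein is at 120 and 90.3.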

How the data were processed

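The pyrosequencing reads of all 12 libraries were assembled together by the authors, who deposited raw counts of reads per contig and library. Field reads were trimmed (Cutadapt), mapped to RefSeq transcripts of assembly EG5 (BWA-MEM) and counted (SAMtools) by the authors, who deposited them as RPKM under column titles that name read counts. The sources used here give no tool versions. A further 17 columns beside one count column were not used. Contig names, domains and RefSeq transcripts came from the study's supplementary tables (1050 contigs), and 845 matched a locus of the reference table.

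Treated libraries were set against 0 h of the same tissue with the exact Audic and Claverie test, two-sided with the smaller tail doubled, at unadjusted p under 0.01 (the study tested AZ150 in this way and then applied a Bonferroni correction). edgeR's quasi-likelihood test (version 4.0.16, R 4.3.3, TMM) was fitted to the 10762 contigs that had 3 or more reads in 4 or more libraries. The designs were additive (tissue plus time) or 6 groups of tissue by treatment, each with 6 residual degrees of freedom, and called at Benjamini-Hochberg adjusted p under 0.05. The SE is the log2 difference over the root of the F statistic. DESeq2 1.42.0 was an alternative. Ratios have exact conditional 95% intervals and levels exact Poisson intervals (scipy 1.17.1). Field genes, with transcripts of a locus summed, counted as higher from a 2-fold ratio of RPKM + 0.1 with RPKM of at least 1 in either library. Scripts were tested on simulated counts with 200 changed contigs.

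Named contigs are the 3 chitinases, all contigs annotated as chitinase, PR4 or Barwin, the 5 most alike to each chitinase and up to 3 of each PR list. The members and lists were chosen with earlier results of these data known. Protein and promoter sequences and RefSeq product names were not used here.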

Additional observations from a re-analysis of the deposited data

How the results depend on the processing

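The count of 23 of 27 comparisons with 0 h called higher was 20 to 26 with other library totals, TMM scaling, the observed count in both tails, Benjamini-Hochberg or Bonferroni adjustment or contigs of a transcript summed. Summing turned the direction of the acidic endochitinase in AZ150 at 3 h. CL1Contig19377 was lower than at 0 h but not called (exact Audic and Claverie p = 0.825). The sum was higher (exact Audic and Claverie p = 0.000530), and it was not run under the other settings. Without the comparisons that use the AZ30 library at 0 h or the P150 library at 9 h, an alternative chosen after seeing the data, 13 of 15 were higher. The calls lost on adjustment were CL1Contig10109 in AZ30 at 6 h and CL1Contig19377 in P150 at 6 h, and with Bonferroni also CL1Contig19377 in AZ150 at 9 h. The 7 of 9 time terms were called in each of the 11 alternatives. The tissue differences, 0 of 9 called, were 0 to 2 of 9 when each time was left out in turn. With the tissue not compared left out, an alternative chosen after seeing the data, AZ150 over P150 of CL1Contig10109 was called (1.46), and the other alternatives called none. The 15 ethylene effects and differences by tissue, 0 called, were 4 with DESeq2's Wald test and 1 with all contigs with a read in the fit. These are the ethylene effects of CL1Contig10109 in AZ150 and P150 and of CL1Contig23312 in AZ150 and AZ30 with DESeq2, and of CL1Contig10109 in AZ30 with all contigs, and the cause was not tested. The 2 field transcripts stayed past 2-fold in all 3 comparisons under every alternative. No paired analysis was possible because each group is 1 library, and the additive fit already compares times within tissues. Depth limits AZ30 at 0 h, where 1 read is 3.77 reads per 100000, and P150 at 9 h, where it is 2.40.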
